A study of Mus musculus with 12 samples.

Results

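Haem synthesis and breakdown in the adult mouse liver were followed through 9 genes of the pathway, listed by name: Alas1, Alad, Uros, Urod, Cpox, Ppox and Fech of the synthesis route, and Hmox1 and Blvrb of the breakdown route. These are 9 of the 24527 gene symbols in a count table of liver messenger RNA, and all 9 were among the 13204 genes that passed a filter on low counts. The mice were 39 weeks old and came from CF1 females and B6SJL males, and 4 groups of 3 libraries were compared. They were females and males conceived by mating (natural females and natural males) and females and males conceived by in vitro fertilization (IVF females and IVF males), where egg and sperm are joined in a dish before embryo transfer. Each library has an animal number of its own in its title. An IVF female and an IVF male share the part of that number before the point, whose meaning the labels do not state. The comparisons ask whether IVF changes adult liver expression and whether it does so differently in the sexes. The list of members was drawn up with results from the read counts of these libraries in view, so the 9 genes count as chosen by measured values, although no threshold and no contrast is recorded for that choice. Their levels and fold changes are therefore given as descriptions, without p-values. Counts of members past the threshold are printed beside the share over all genes, and nothing is read from them, while tests are given for genes that are not members.

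Haem is an iron atom held in a porphyrin ring. The liver makes it mainly for cytochrome P450 enzymes and other haemoproteins, and synthesis starts in the mitochondrion, continues in the cytosol and ends in the mitochondrion. Alas1 encodes the housekeeping aminolevulinate synthase, the rate-limiting enzyme in liver, which haem itself holds down at several levels, including import of the enzyme and its breakdown by the mitochondrial ClpXP protease. Breakdown begins with haem oxygenase, which opens the ring to give biliverdin, carbon monoxide and iron, and biliverdin reductases act on the product.

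Promoter sequence was matched for 7 of the 9 members in RefSeq (GRCm38.p6), and windows of 250 bases before each start site were searched on both strands. The stretches below are shown because Alas1 carried the widest differences among the members, and because genes of the circadian clock, whose activators bind the E-box CACGTG, varied beside it. Each is written 5′ to 3′ on the gene's strand, with the matching letters in capitals, either the core bound by nuclear respiratory factor 1 (the capitals in the Alas1 and Abcb10 lines) or CACGTG. Both runs of letters read the same on either strand, and neither contains the other.
Alas1, chr9:106247906-106247935, minus strand: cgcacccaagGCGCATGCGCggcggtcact
Abcb10, chr8:123983135-123983164, minus strand: cctgagtgccGCGCATGCGCactccgccag
Alad, chr4:62519920-62519949, minus strand: ccgccccgccccCACGTGggcttgcgcttt
Urod, chr4:116994445-116994474, minus strand: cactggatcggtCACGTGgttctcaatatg
Per1, chr11:69098771-69098800, plus strand: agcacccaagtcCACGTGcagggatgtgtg
Ciart, chr3:95882327-95882356, minus strand: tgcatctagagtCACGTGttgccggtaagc
The Alas1 match lies 185 bases before the start site at chr9:106247730. The window of the other Alas1 start site, chr9:106247954, held 0 matches, and the match lies downstream of that site. The core occurs in 0.782% of the 32851 windows of this length. Abcb10, a mitochondrial inner membrane transporter needed for haem synthesis, holds the same core 22 bases before its start site. The core was also found in the window of a listed gene of haem and haemoglobin uptake, which is not shown here. CACGTG occurs in 6.02% of the windows, and among the members it was found in Alad, Urod and Uros and not in either Alas1 window. The antioxidant response core TGACNNNGC (10.2% of windows) and the nuclear receptor element AGGTCA (14% of windows) were not found in the windows of these 7 members. Hmox1 and Fech had no promoter sequence here and were not searched for any of these letters. A match describes letters, not binding.

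Total counts per library ranged from 6826534 to 27832271, so that 3 counts, the limit that a count of 0 allows, correspond to between 0.108 and 0.439 CPM (read counts relative to the library total, adjusted by the trimmed mean of M-values, TMM). Such limits cover counting error only. The libraries of smallest total, IVF female replicate 1 and natural female replicate 2, stood apart from the other 4 female libraries: 51.1% of all tested genes did not overlap between these 2 and the other 4. Among the members, Alad, Urod and Ppox were lower without overlap in these 2 libraries, and Uros, Fech and Blvrb were higher. They fall in different groups, so that each female group holds 1 of them. Libraries of one group differed far beyond sampling noise. Summed hepatocyte markers lay between 70973 and 80158 CPM in IVF males and between 84511 and 105013 CPM in the other groups, and 0 of the 6 were at 0. Alb made up most of this sum. The part of this in the values of IVF males was not tested. Of the haemoglobin genes, which mark red blood cells, Hbb-bs, Hbb-bt and Hba-a2 were at 0 in every library and Hba-a1 had at most 10 counts. The red cell markers Alas2 and Slc4a1 had reads in every library, up to 174 and 27.4 CPM. The zeros are therefore not read as absence of red cells, and why they arose was not tested. Beside the differences between the sexes given below, and beside 3.63% of all genes called lower, 3 of 7 Kupffer cell markers (Vsig4, Timd4 and Clec4f, with log2 differences of -1.44, -1.49 and -0.67) and 2 of 5 stellate cell markers (Lrat and Dcn, -0.83 and -0.55) were lower in males in the average of both modes of conception. Their part in those differences was not tested. In bulk tissue, fewer cells of a type and less RNA per cell cannot be told apart.

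Compared per kilobase of exon, the synthesis genes spanned a wide range of levels. Alad, which condenses aminolevulinate into porphobilinogen, was highest at 112 ± 37.5 CPM per kb (mean ± SD, n = 12 libraries). Alas1 followed at 62.6 ± 43.4 and Cpox at 39.3 ± 6.24 CPM per kb. Urod (21.2), Blvrb (17.7), Hmox1 (12.0) and Fech (11.5 CPM per kb) were intermediate, and Uros at 3.20 ± 0.805 and Ppox at 2.34 ± 0.767 CPM per kb were lowest. Hmox1 and Fech, and likewise Uros and Ppox, were neighbours within the spread of the libraries. The place of Alas1 in this order depended on the group: it averaged 12.9 ± 8.35 CPM per kb in natural females, below Cpox (33.2), Urod (20.2) and Blvrb (14.0) there, and 93.2 ± 57.9 CPM per kb in IVF males. Lengths are unions of all annotated exons, 13838 bp for Fech and 1871 bp for Alad, and a gene whose long isoforms are little used is understated.

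**Figure D1:**
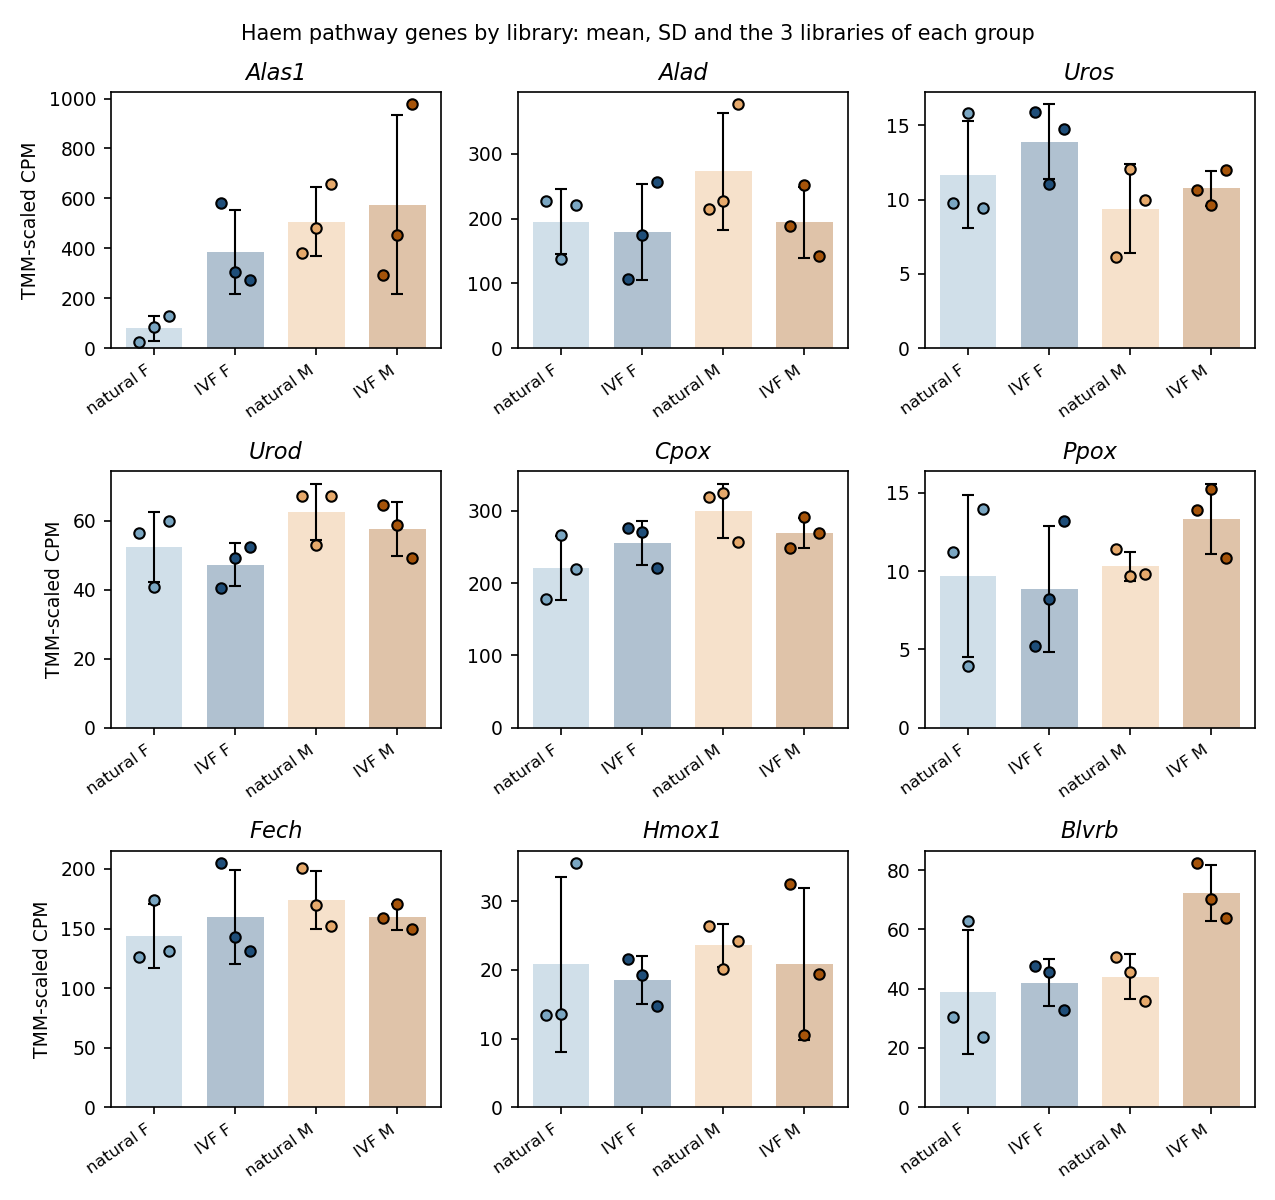
Levels of the 9 haem pathway genes in TMM-scaled CPM (y axis, from 0) for natural females, IVF females, natural males and IVF males (x axis). Points are single libraries, bars are means and lines are ± 1 SD (n = 3). Alas1 stays below 130 CPM in natural females, and Blvrb is highest in IVF males.

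Alas1 (chr9:106233455-106248654, minus strand, GENCODE M21 on GRCm38) was the most variable member. It stood at 25.4, 84.7 and 128 CPM in the 3 natural females, from 634, 707 and 2211 reads. In IVF females it stood at 580, 304 and 274 CPM, in natural males at 382, 480 and 657 CPM, and in IVF males at 294, 454 and 977 CPM. All 3 natural females lay below every one of the other 9 libraries, whose groups overlapped each other. How many of all genes show this pattern was not counted. The highest library held 38.4 times the CPM of the lowest.

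The fitted Alas1 difference between IVF and natural females was 2.28 ± 0.58 on the log2 scale (fold change ± SE), or 4.86-fold, with no overlap between the groups. Between IVF and natural males it was 0.18 ± 0.56, and it was -0.44 without IVF male replicate 3, the library of highest Alas1. The difference of these 2 effects was -2.10 ± 0.80. Within natural mice, Alas1 was 2.67 ± 0.59 higher in males than in females (6.38-fold). Within IVF mice the same difference was 0.58 ± 0.56, and -0.04 without IVF male replicate 3. The contrasts within females and within natural mice share the natural females, in which Alas1 was lowest.

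At an adjusted p under 0.05, 0 of the 9 members were called between IVF and natural females, where 0% of the tested genes were called by edgeR's quasi-likelihood test. In that comparison 3.7% of all genes had an unadjusted p under 0.05, DESeq2 called 4 genes and limma voom 0. Alas1 was the 1 member without overlap, beside 7.42% of all genes. Between IVF and natural males 0 members were called, beside 0.00757% of all genes, and Blvrb was the 1 member without overlap, beside 8.91%. For the difference between the sexes in the IVF effect, 0 members were called beside 0% of all genes, of which 3.87% had an unadjusted p under 0.05. DESeq2 called 9 genes there and limma voom 0. For the average of both IVF effects, 0 members were called beside 0.00757% of all genes. Alas1 was the 1 member called between natural males and natural females, beside 1.77% of all genes, and the 1 without overlap there, beside 20% of all genes. It was also the 1 member called in the average of both male to female differences, beside 7.2%. These counts describe genes picked with such results known, and they are no evidence for the members.

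**Figure D2:**
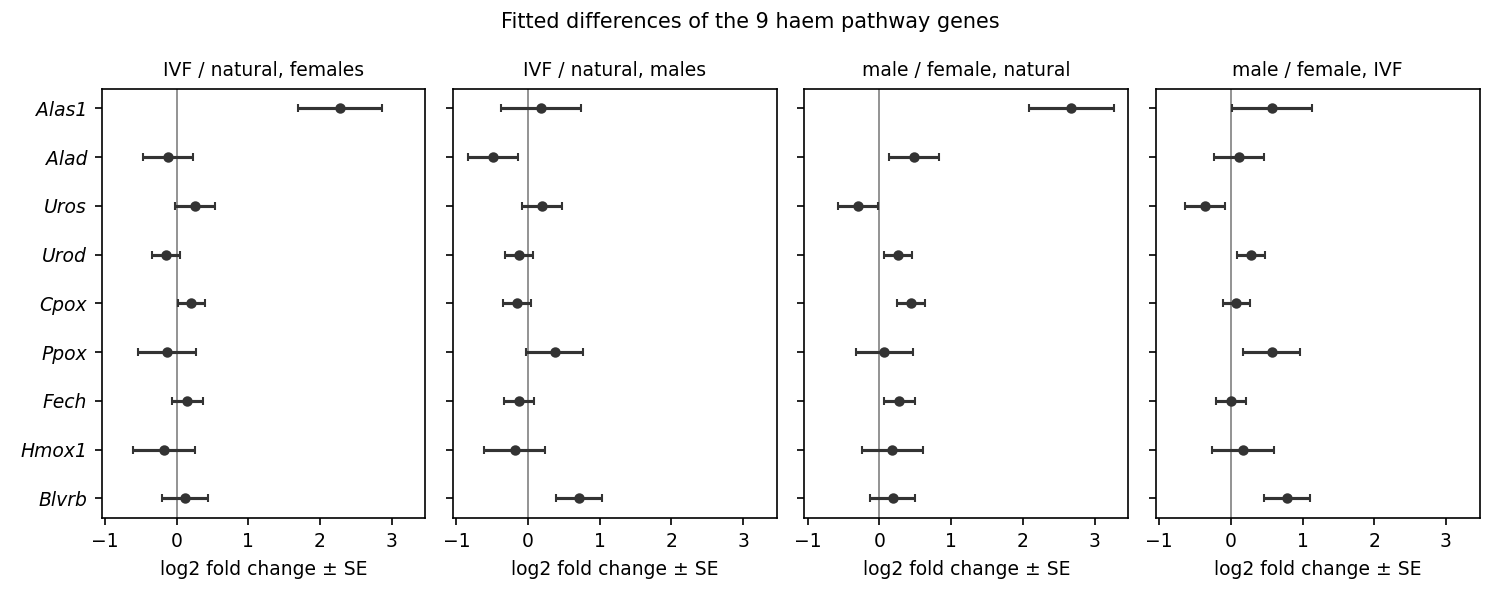
Fitted log2 fold changes ± SE (x axis) of the 9 haem pathway genes (y axis) for IVF against natural in females and males, and male against female in natural and IVF mice. Alas1 lies at 2.28 and 2.67 in the comparisons that involve natural females, and the other 8 genes lie between -0.49 and 0.78.

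Some clock genes, whose levels follow the time of day in liver, varied beside Alas1 across these libraries. Of the 13 tested, 9 were higher and 4 lower in IVF than in natural females, with a median of 0.21, and Cry2 (0.02), Nr1d1 (-0.01) and Hlf (0.08) differed little. Per2, a repressor of the clock and the gene whose profile was closest to that of Alas1 among 9094 genes, stood at 5.90, 13.7 and 19.3 CPM in natural females and at 22.1 to 59.8 CPM in the other libraries. The measure was the root mean square difference of centred log2 CPM over 12 libraries, 0.57 for Per2 against an SD of 1.46 for Alas1 itself. Next came Coq10b, which acts in coenzyme Q function, at 0.72, and Thrsp, a lipogenic gene, at 0.72. This is a description of 12 libraries that share 4 groups.

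Arntl is an activator of the clock that is lowest when the Per genes are high. It ran opposite to Alas1 between natural female replicates 1 and 2 and the other libraries, but not within every group. Arntl stood at 15.5, 22.2 and 4.23 CPM in natural females, at 2.91 to 6.69 CPM in IVF females and at 2.10 to 2.85 CPM in males. In IVF females and IVF males, the library of lowest Arntl (2.91 and 2.47 CPM) was also that of lowest Alas1 (274 and 294 CPM). Natural female replicates 1 and 2, the libraries of lowest Alas1, had the highest Arntl. Per1 showed 3.13 and 4.55 CPM in these 2 libraries, 13.6 CPM in natural female replicate 3, and 10.0 to 60.4 CPM in the other libraries. The log2 difference of Arntl between natural males and natural females was -2.57 ± 0.50 (adjusted p = 0.0244, lost in 9 of 22 settings), and Per2 was 1.78 ± 0.43 higher (adjusted p = 0.0651). Averaged over both modes of conception, Per2 was 1.14 ± 0.30 higher in males (adjusted p = 0.0411, lost in 12 of 21 settings). Those named were chosen after their values were seen. Between IVF and natural females Per1 differed by 1.87 ± 0.64, Per2 by 1.21 ± 0.42, Per3 by 1.42 ± 0.45 and Arntl by -1.57 ± 0.48, and 0 of the 13 tested clock genes were called. The hour at which livers were collected is not given in the sources used here, and its part in the Alas1 differences was not tested. Without natural female replicates 1 and 2, which leaves 1 natural female assumed to vary like the other groups, the Alas1 differences were 1.60 (IVF against natural females) and 2.0 (natural males against natural females).

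**Figure D3:**
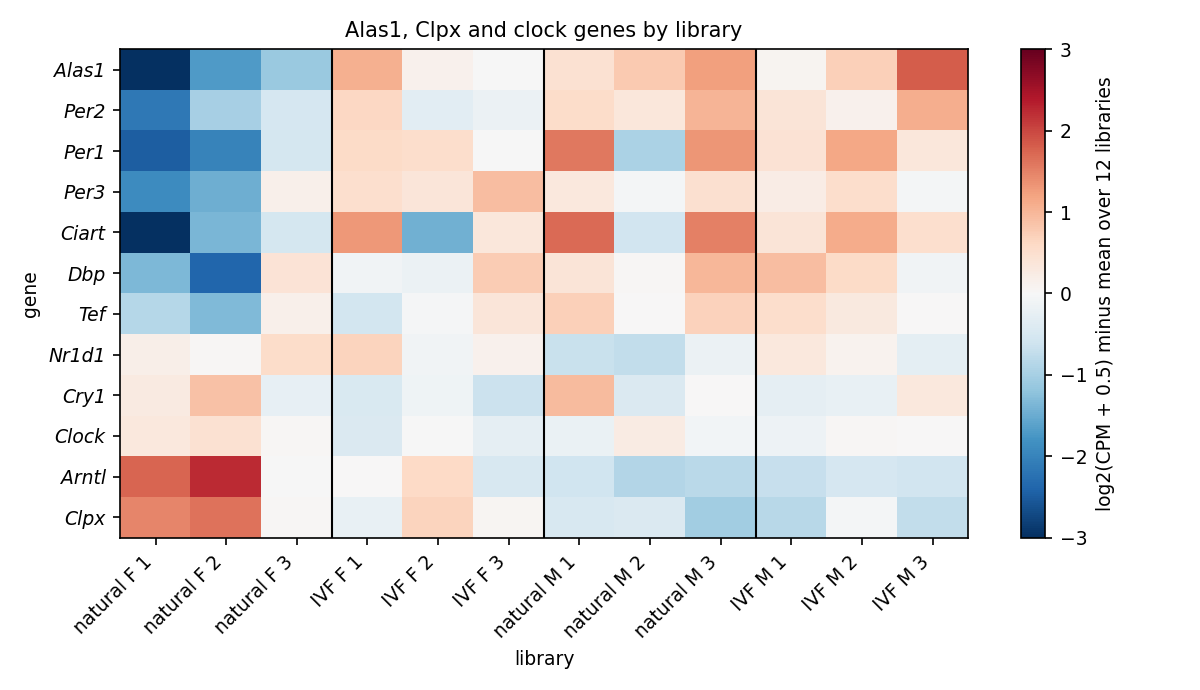
Centred log2(CPM + 0.5) of Alas1, Clpx and 10 clock genes (rows) in the 12 libraries (columns), as the difference from each gene's mean over all libraries; red is higher and blue lower. In natural females 1 and 2, Alas1, Per1, Per2 and Per3 are low while Arntl and Clpx are high.

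Clpx encodes the unfoldase of the mitochondrial protease that acts on the Alas1 protein, and it also activates that enzyme by helping its cofactor in. It had 302 and 340 CPM in natural female replicates 1 and 2, and 112 CPM in natural female replicate 3. The remaining libraries held 52.3 to 173 CPM, so that 2 of the 3 natural females were above every other library and the third was within their range. Clpx was lower in natural males than in natural females by a log2 difference of -1.84 ± 0.40 (adjusted p = 0.0426), and in the average of both male to female differences by -1.28 ± 0.28 (adjusted p = 0.0199). Between IVF and natural females it differed by -0.99 ± 0.39 and was not called. The call within natural mice was lost in 12 of 22 alternative settings, and without natural female replicates 1 and 2 the difference was -0.65.

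**Figure D4:**
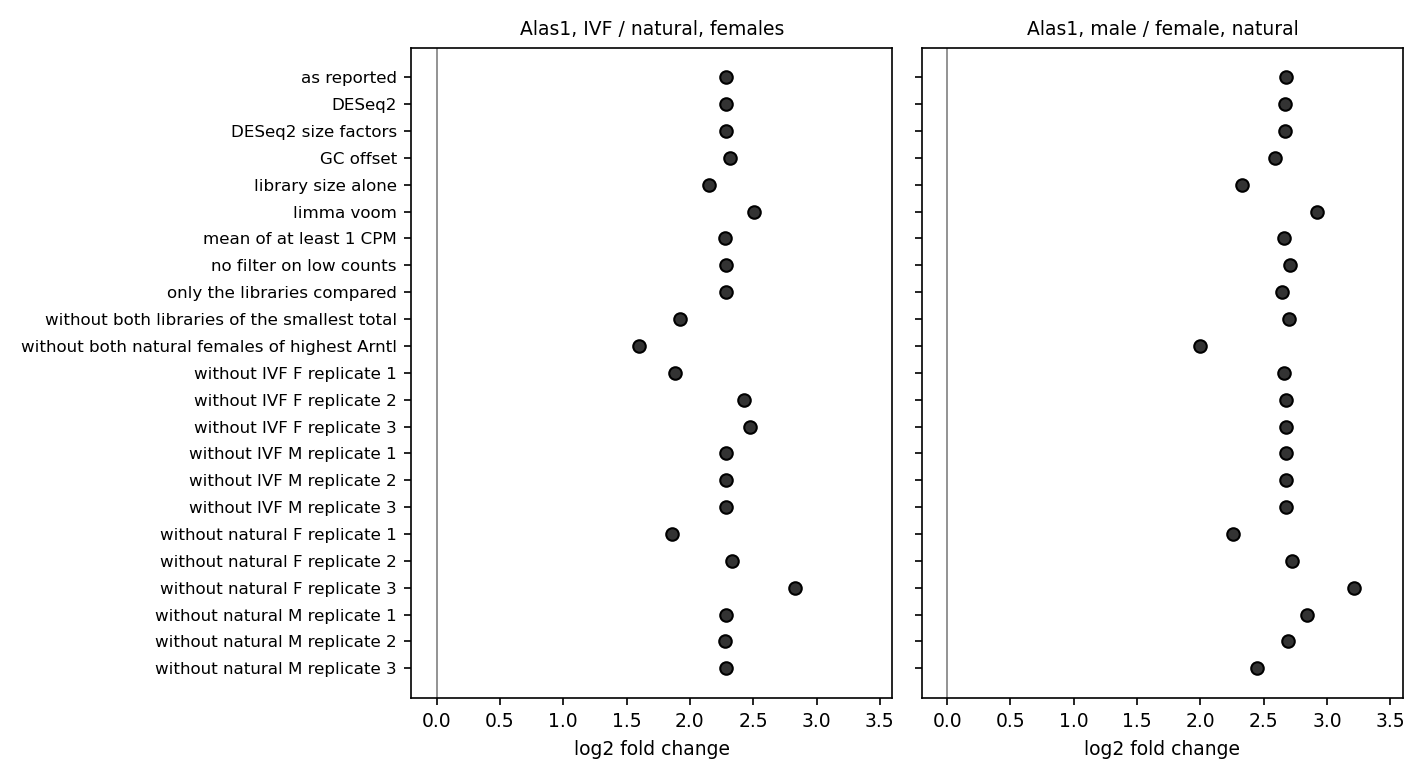
Log2 fold change of Alas1 (x axis) as reported and under 22 alternative settings (y axis), for IVF against natural females (left) and natural males against natural females (right). Each point is 1 fit. Values run from 1.60 to 2.83 on the left and from 2.0 to 3.21 on the right, with none below 0.

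The enzymes after Alas1 differed little between groups. Alad stood at 228, 138 and 220 CPM in natural females, at 107, 175 and 256 CPM in IVF females, at 215, 227 and 376 CPM in natural males and at 189, 251 and 142 CPM in IVF males. All 4 groups overlapped, and the lowest value in each female group was that of its smallest library. The fitted difference was -0.12 ± 0.35 between IVF and natural females and -0.49 ± 0.35 between IVF and natural males.

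Uros, which closes the ring as uroporphyrinogen, stood at 9.75, 15.8 and 9.44 CPM in natural females, at 15.9, 11.1 and 14.7 CPM in IVF females, at 6.17, 12.0 and 10.0 CPM in natural males and at 10.6, 9.64 and 12.0 CPM in IVF males. It was the 1 member with a lower fitted level in males in both modes of conception, by -0.30 ± 0.28 and -0.36 ± 0.28, and the groups overlapped. Urod, the decarboxylase that follows, averaged 52.3 ± 10.2 CPM in natural females, 47.2 ± 6.15 CPM in IVF females, 62.5 ± 8.19 CPM in natural males and 57.5 ± 7.75 CPM in IVF males (mean ± SD, n = 3). Natural males (53.0 to 67.2 CPM) lay just above IVF females (40.4 to 52.2 CPM), the other pairs of groups overlapped, and its highest library held 1.67 times the CPM of its lowest.

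Cpox (chr16:58670292-58717636), the coproporphyrinogen oxidase of the mitochondrial intermembrane space, stood at 178, 266 and 219 CPM in natural females, at 276, 270 and 220.5 CPM in IVF females, at 319, 324 and 257 CPM in natural males and at 249, 291 and 269 CPM in IVF males. Natural males were 0.44 ± 0.19 above natural females on the log2 scale, with 1 natural male below 1 natural female. Fech, the ferrochelatase that inserts iron, averaged 144 ± 26.5, 160 ± 39.7, 174 ± 24.6 and 160 ± 10.6 CPM in natural females, IVF females, natural males and IVF males (mean ± SD, n = 3). Its fitted difference between IVF males and IVF females was 0.00 ± 0.21.

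Ppox, the oxidase before the iron step, was the lowest of the synthesis genes per kilobase and rested on few reads. It stood at 11.2, 3.95 and 14.0 CPM in natural females, at 5.19, 8.19 and 13.2 CPM in IVF females, at 11.4, 9.69 and 9.84 CPM in natural males and at 13.9, 15.3 and 10.9 CPM in IVF males. Its lowest values, from 33 and 35 reads, were those of the smallest female libraries. Ppox shares 791 bases of exon with B4galt3 on the other strand, Cpox 204 bases with Gpr15, and Alas1 465 bases with the antisense gene 4930500F10Rik, which was not analysed here. Whether counting used strand is not given in the sources used here, so that reads of such overlaps cannot be assigned.

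Hmox1, the inducible haem oxygenase, stood at 13.4, 13.5 and 35.5 CPM in natural females, at 21.5, 19.3 and 14.7 CPM in IVF females, at 26.4, 20.2 and 24.2 CPM in natural males and at 32.5, 10.5 and 19.4 CPM in IVF males. A single library set the top of each range in natural females and IVF males, and the groups overlapped. The fitted difference was -0.18 ± 0.43 between IVF and natural females and -0.19 ± 0.43 between IVF and natural males. Without natural female replicate 3 the first of these was 0.48. That library also had the highest Slc4a1 (27.4 CPM), a marker of red cells and their precursors, and its part in its Hmox1 level was not tested. The genes whose profiles were closest to that of Hmox1, at root mean square differences of 0.30, 0.32 and 0.33 against its own SD of 0.53, were Slc2a1, Rpl31 and Rarg.

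Blvrb, a flavin and biliverdin reductase abundant in red cells and liver, was higher in the 3 IVF males than in each of the other 9 libraries. It stood at 82.3, 70.4 and 63.7 CPM in IVF males, at 50.6, 45.8 and 35.8 CPM in natural males, at 47.8, 45.5 and 32.9 CPM in IVF females and at 30.3, 62.7 and 23.8 CPM in natural females. The nearest of the other libraries was natural female replicate 2, one of those of smallest total, and the remaining 8 were at most 50.6 CPM. How many of all genes set a single group apart in this way was not counted. The fitted difference was 0.71 ± 0.32 against natural males (1.64-fold) and 0.78 ± 0.32 against IVF females. Between IVF males and IVF females 0 members were called, beside 2.19% of all genes, and Blvrb was the 1 member without overlap, beside 21.8%. Between IVF and natural females it differed by 0.12 ± 0.32, and by 0.55 without the 2 smallest libraries. Summed markers of Kupffer cells, the macrophages of the liver that take up red cells, spanned 124 to 194 CPM in IVF males, 224 to 262 CPM in natural males, 252 to 396 CPM in IVF females and 243 to 332 CPM in natural females. All 7 of these markers were detected in each group, and the sum was lowest in IVF males, where Blvrb was highest. Summed red cell markers spanned 27.3 to 176 CPM in IVF males and 25.7 to 61.9 CPM in natural males, mostly from Alas2. Their part in the Blvrb level was not tested.

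Of the other enzymes of the pathway, Alas2, Hmox2 and Blvra are described here, and 0 of these 3 were called in any comparison by edgeR. Alas2, the synthase of red cell precursors, reached 174 CPM in IVF male replicate 1 and spanned 6.61 to 56.0 CPM in the other libraries. It differed by 2.62 ± 0.83 between IVF males and IVF females (adjusted p = 0.152), whose libraries did not overlap. Hmox2, the constitutive haem oxygenase, stood at 43.1, 45.7 and 44.0 CPM in natural males and at 33.2, 36.5 and 35.6 CPM in IVF males, a log2 difference of -0.34 ± 0.18 that was not called. It shares 892 bases of exon with Cdip1 on the other strand. Blvra, the main biliverdin reductase of adult tissue, spanned 4.17 to 6.46 CPM, and the IVF males (4.46 to 4.85 CPM) lay below the natural males (4.89 to 6.28 CPM), a difference of -0.22 ± 0.21 that was not called.

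Around the pathway, 54 further genes of haem synthesis, supply, transport, use and regulation were listed, these enzymes included, and all of them were tested. In the 4 comparisons of IVF with natural conception or of its effect between the sexes, edgeR called 0 of them, and DESeq2 and limma voom also called 0. An unadjusted p under 0.05 was given to 2 in females (beside 3.7% of all genes), 5 in males (beside 2.69%) and 3 for the difference of the effects (beside 3.87%). A few were called between the sexes. Natural males against natural females gave 3 higher and 1 lower (beside 0.894% and 0.879% of all genes), IVF males against IVF females 1 higher and 0 lower (beside 0.909% and 1.28%), and the average of both 5 higher and 2 lower (beside 3.57% and 3.63%). The 3 genes that were higher in natural males all belonged to the list of haem and haemoglobin uptake and export, which holds 9 genes. The lists were chosen with earlier results of these data known, so nothing is read from this.

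Abcg2, an exporter of porphyrins, urate and many drugs, rose in males in both modes of conception. It stood at 17.3, 19.3 and 11.4 CPM in natural females, 19.7, 21.1 and 18.5 CPM in IVF females, 108, 77.6 and 52.3 CPM in natural males and 78.3, 62.7 and 91.9 CPM in IVF males, so that all 6 males exceeded all 6 females. The log2 difference was 2.31 ± 0.29 in natural mice (adjusted p = 0.00113) and 1.97 ± 0.28 in IVF mice (adjusted p = 0.00307). Abcg2 remained called in both under all 22 alternative settings. Males lay above females without overlap in 3 of the 54 other haem genes, and the share over all genes is not given here.

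Hp and Hpx encode haptoglobin and haemopexin, plasma proteins made in liver that bind free haemoglobin and haem. Hpx had 2814, 10662 and 8543 CPM in natural males, 4609, 2285 and 2399 CPM in IVF males, 2033, 1717 and 1770 CPM in natural females and 3024, 2461 and 2269 CPM in IVF females. The 2 highest values were those of natural male replicates 2 and 3, and the third natural male lay within the range of the IVF groups. Hpx was 2.0 ± 0.44 higher in natural males than in natural females (adjusted p = 0.0430) and Hp 1.78 ± 0.36 higher (adjusted p = 0.0286). The Hpx call was lost in 14 and the Hp call in 8 of 22 alternative settings, among them leaving out any 1 natural female, natural male replicate 2 or natural male replicate 3. In the average of both sex differences, edgeR gave Hp 1.265 higher in males (adjusted p = 0.0116), a call kept in 20 of 21 settings. For Hpx it gave 1.129 (adjusted p = 0.0454), a call kept in 6 of 21. IVF males were -1.24 ± 0.43 (Hpx) and -0.83 ± 0.35 (Hp) against natural males, and neither was called.

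In the list of mitochondrial supply and transport, 1 of 12 genes was called lower in natural males (Clpx, above), and Abcb10 was called higher in the average of both sex differences, by 1.0 ± 0.23 (adjusted p = 0.0253, lost in 8 of 21 settings). Abcb10 stood at 26.0, 12.9 and 34.5 CPM in natural females, 15.3, 21.9 and 30.2 CPM in IVF females, 58.9, 42.0 and 48.6 CPM in natural males and 47.0, 48.2 and 39.6 CPM in IVF males. All 6 males lay above all 6 females, as for Abcg2, and in each female group the lowest library was the one of smallest total. Within the bilirubin handling list, Slco1a1, a sinusoidal organic anion carrier, was called in the average alone, 2.33 ± 0.56 higher in males (adjusted p = 0.0303, lost in 9 of 21 settings). Among haemoproteins and haem a synthesis, 0 of 12 genes were called in any comparison between the sexes or modes of conception.

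Of 11 regulators of Alas1 and Hmox1, 1 was called. Ppargc1a, the coactivator that induces Alas1 on fasting, stood at 10.5, 31.6 and 16.6 CPM in natural females, 31.8, 13.0 and 14.4 CPM in IVF females, 12.8, 9.34 and 6.01 CPM in natural males and 3.30, 10.2 and 3.85 CPM in IVF males. It was lower in males in the average of both sex differences, by -1.40 ± 0.38 (adjusted p = 0.0475), where Alas1 was 1.62 ± 0.40 higher. The 2 highest Ppargc1a values were those of the smallest libraries. The call was lost in 13 of 21 settings, among them limma voom, leaving out both smallest libraries and leaving out any 1 library other than IVF male replicate 2 or natural female replicate 1. Between IVF and natural females, where the Alas1 groups did not overlap, Ppargc1a differed by 0.00 ± 0.53. In the same comparison Nr1d1, a clock repressor whose protein binds haem, differed by -0.01 ± 0.26. Bach1, the haem-sensitive repressor of Hmox1, differed by 0.10 ± 0.23 and Nfe2l2, its activator under oxidative stress, by 0.01 ± 0.22, and none of these was called.

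**Figure D5:**
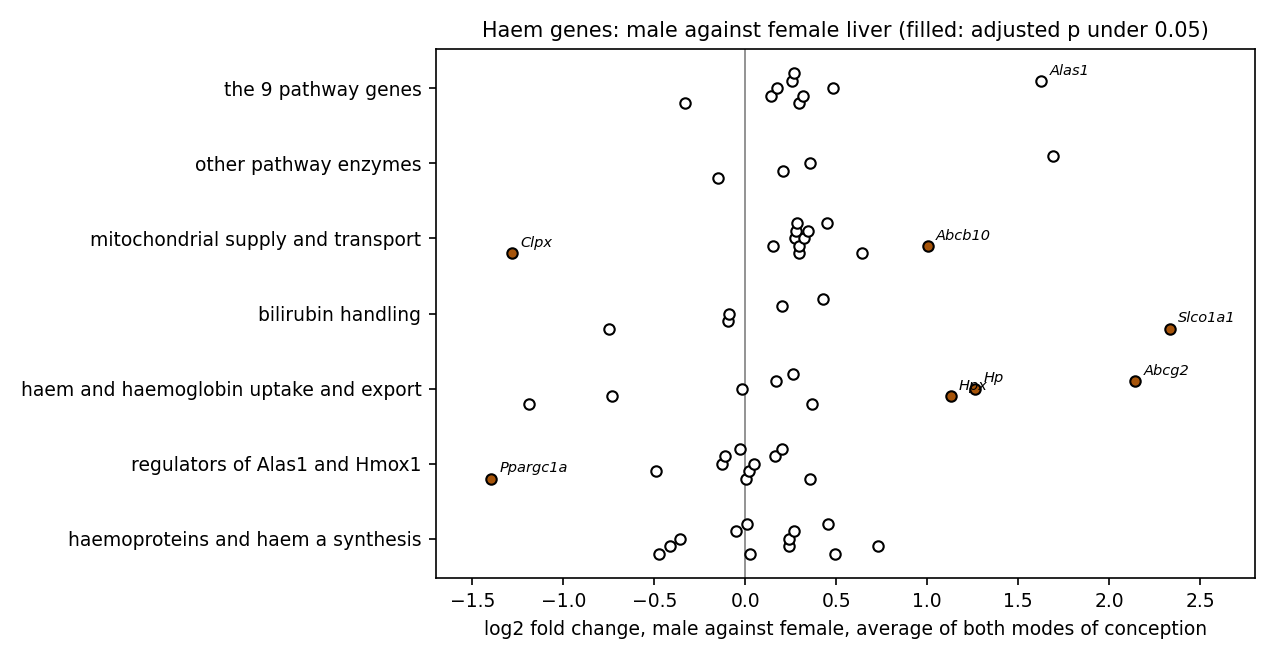
Log2 fold change of males against females, averaged over natural and IVF mice (x axis), for the 9 pathway genes and the 6 lists of other haem genes (y axis). Each point is a gene and filled points, not used for the 9 pathway genes, have an adjusted p under 0.05. In the list of uptake and export 3 of 9 genes are filled, all to the right of 0, of which the Hpx call was lost in 15 of 21 settings.

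Read as a list, the members had a median log2 difference of 0.27 for males against females averaged over both modes of conception, with 8 of 9 above 0, beside a median of -0.01 over all tested genes. The 54 other haem genes had a median of 0.21, with 37 above 0. These counts depend on scaling: with library size alone, the median of all genes moved to -0.22, 6 members were above 0 and their median was 0.06. Within natural mice that scaling changed the all-gene median from -0.02 to -0.34, and the members above 0 fell from 8 to 3. With that scaling 17.3% of the genes called within natural mice were higher in males, against 50.4% with TMM, and in the average 15.5% against 49.6%. Alas1 was 2.33 higher in natural males than in natural females with library size alone. For IVF against natural females the members' median was 0.12, with 5 of 9 above 0, and for males -0.12, with 4 of 9 above 0, beside -0.01 and 0.01 over all genes. Single libraries moved these medians: without IVF male replicate 2 that in males was 0.13, and without natural female replicate 1 or 2 that in females was 0.0093 or 0.31. With library size alone the median in males was 0.02, with 6 of 9 above 0.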

How the data were processed

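Liver poly-A RNA of 12 mice was sequenced on a NextSeq 500 from libraries made with a KAPA kit, per the labels' protocols. The authors deposited whole-number read counts per gene symbol, not normalized. Trimmomatic 0.32, STAR 2.3.0e, featureCounts 1.5.0 and the build mm10 are named in the submitters' processing notes. Groups came from the labels. The p-values weigh a difference between groups against the spread between animals within groups, estimated over all 4 groups together. All 12 libraries were treated as independent.

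Counts were analysed with edgeR 4.0.16 (R 4.3.3): filterByExpr, TMM scaling and quasi-likelihood tests in 1 model over 12 libraries, with 7 contrasts and Benjamini-Hochberg adjustment over 13204 genes. A gene was called at an adjusted p under 0.05. The SE is the log2 fold change over the root of F. The code was tested on simulated data. DESeq2 1.42.0 and limma 3.58.1 (voom) were among the alternatives, as were other scalings and filters, an offset from a loess fit to GC content (span 0.5, GC known for 99.4% of genes) and left-out libraries. Symbols were matched to GENCODE M21 (23805 directly, 329 by synonym, 393 not).

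The members and lists were chosen with earlier results of these data known. Named were all members, Alas2, Hmox2, Blvra, Ppargc1a, Nr1d1, Bach1 and Nfe2l2, at most 4 called genes per list and contrast, and the 3 genes closest to Alas1 and to Hmox1 among those with a mean of at least 5 CPM. Other named clock, marker and transport genes were chosen after their values were seen. No protein sequences were used here, and 2 listed genes are not reported here by name.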

Additional observations from a re-analysis of the deposited data

Results flagged for a closer look

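In 2 of the listed haem genes, every IVF female lay above every natural female while every IVF male lay below every natural male, a pattern that 78 of the tested genes (0.591%) showed. Por, the reductase that passes electrons to cytochrome P450 enzymes and haem oxygenase, had 632, 660 and 654 CPM in IVF females against 403, 422 and 555 CPM in natural females. In males it had 381, 396 and 413 CPM after IVF against 905, 443 and 622 CPM after natural conception. Its log2 difference was 0.50 ± 0.24 in females and -0.73 ± 0.25 in males, and the difference of these effects, -1.22, was not called by edgeR. Cyp1a2, a cytochrome P450 of the liver, had 1113, 617 and 692 CPM in IVF females against 511, 467 and 598 CPM in natural females, and 591, 707 and 623 CPM in IVF males against 1130, 783 and 846 CPM in natural males. Its differences were 0.62 ± 0.25 and -0.52 ± 0.25, and the difference of these effects, -1.14, was not called either.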

How the results depend on the processing

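No member was called for the 4 comparisons of IVF in any of the alternatives run, and none of the 54 other haem genes was. The 1 member called between natural males and natural females became 0 with a GC offset, with only the libraries compared, without both smallest libraries, and without natural female replicates 1 and 2 (an alternative chosen after seeing the data), and leaving out 1 library gave 0 to 1 (0 without any 1 natural male, natural female replicate 1 or 2, IVF female replicate 2 or 3, or IVF male replicate 2). In the average of both sex differences the 1 member became 2 without both smallest libraries, where Blvrb joined Alas1, and 0 to 1 with 1 library left out. Without natural female replicate 2, and without natural female replicates 1 and 2, the 1 member was Blvrb in place of Alas1. Among other haem genes, the 4 called within natural mice became 2 with limma voom and 1 with only the libraries compared, without both smallest libraries or without natural female replicates 1 and 2, 5 with DESeq2, and 1 to 4 with 1 library left out. The 1 called within IVF mice became 4 with DESeq2 and 2 without both smallest libraries or without natural female replicates 1 and 2 (1 to 2 with 1 library left out). The 7 called in the average became 1 without natural female replicates 1 and 2, 10 with DESeq2, and 2 to 6 with 1 library left out. The causes were not tested. Over all tested genes, DESeq2 called 678 between natural males and natural females, 721 between IVF males and IVF females and 1693 in the average, against 234, 289 and 951. Sign turned between IVF and natural females for Alad, Ppox and Blvrb in 2 of 22 alternatives each, and for Fech and Hmox1 in 1 each. In males the same held for Alas1, Uros, Urod, Fech and Hmox1 in 1 each. No paired analysis was possible because the labels carry no replicate numbers, and those used here only name the animals. At 33 to 35 reads in the smallest libraries, counting error limits Ppox, and 3 libraries a group limit the rest.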
